A study of Mus musculus with 4 samples.

Results

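The fat cell is described here by 9 genes that mark it or its differentiation: Adipoq, Retn, Lep, Scd1, Cidec, Plin1, Fabp4, Cfd and Pparg. They were chosen by name, and every probe set that the platform annotation assigns to one of them and to no other gene was used. This gave 11 of the 34945 single-gene probe sets, for 7 of the 9 genes. No probe set carried the symbol Plin1 (perilipin 1, a coat protein of the fat droplet) or Cfd (adipsin, a protease of the complement system), and both genes were not analysed here. RNA came from tibialis anterior (a muscle of the shin made mostly of fast fibres) of C57BL/6J mice, and each of 4 groups gave 1 Affymetrix mouse genome array. The groups were mdx/MMP-2-/- at 1 month, mdx at 1 month, mdx/MMP-2-/- at 3 months and mdx at 3 months. All 4 carry the mdx mutation, which removes dystrophin and models Duchenne muscular dystrophy. The mdx/MMP-2-/- groups also lack matrix metalloproteinase 2, a secreted gelatinase, and are called MMP-2 null below, always on the mdx background. There was no array of wild-type muscle, and whether animals were pooled is not stated.

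White fat cells store triglyceride in 1 large droplet and secrete hormones called adipokines. They arise from mesenchymal progenitors, in muscle the fibro-adipogenic progenitors, when C/EBP transcription factors and the nuclear receptor PPAR-gamma (Pparg) switch on genes such as Adipoq, Fabp4 and Cidec. Replacement of fibres by fat is a hallmark of human Duchenne muscle and is milder in mdx mice. Of the 9 genes, Adipoq, Retn, Lep, Cidec and Plin1 are made mostly by fat cells, whereas Fabp4 and Pparg are also made by capillary endothelium and macrophages, and Scd1 by many cells that make lipid.

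Signals are given after quantile scaling of the arrays. A signal of 17.4, the 50th percentile of all scaled signals, was taken as the floor below which a probe set was not counted as measured. Of 12801 genes above the floor in at least 1 array, 6 were among the 9. With 1 array a group there is no replicate spread, differences between single arrays have no test, and the words higher and lower refer to the arrays compared. Mmp2 served as a check of the labels: its brighter probe set gave 24.7 in MMP-2 null against 985 in mdx at 1 month, and 40.9 against 805 at 3 months. The main probe set of Dmd, the dystrophin gene, gave 124 against 123 and 113 against 154; mdx mice are known to keep making its transcripts. Deposited signals had 2% trimmed means of 97.5 or less in 3 arrays and of 122 in MMP-2 null at 3 months. The 3'/5' signal ratio of Actb, which grows as transcripts are degraded or copied short, was 1.05 and 1.19 in MMP-2 null and mdx at 1 month, and 2.09 and 2.36 at 3 months. The same ratio of Gapdh, the second control, was 0.85 and 0.88 at 1 month and 0.94 in both arrays at 3 months. All 14 fast skeletal muscle markers listed were measured, and of 8 skin keratinocyte markers 3 were, so the arrays read as muscle.

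The stretch of 250 bases before the annotated start is shown for 4 of the genes, because Adipoq, Retn and Cidec were lower in MMP-2 null at 1 month and higher at 3 months, and Pparg the reverse. Sequences and positions are those of RefSeq on build GRCm38.p6, which held promoters for 7 of the 9 genes at 10 starts. Fabp4 and Scd1 were not among them. Capitals mark matches, on either strand, to any of 5 motifs: the direct repeat bound by PPAR-gamma with RXR, its single site AGGTCA, TTGCNNAA (bound by C/EBP factors), TATAAA (the TATA box) and CCAAT (the CCAAT box).
Adipoq (chr16:23146286-23146535, plus strand): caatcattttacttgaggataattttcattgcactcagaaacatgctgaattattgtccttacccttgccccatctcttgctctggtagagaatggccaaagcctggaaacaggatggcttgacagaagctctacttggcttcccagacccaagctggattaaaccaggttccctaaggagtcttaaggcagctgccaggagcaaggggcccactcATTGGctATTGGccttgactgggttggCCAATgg
Retn (chr8:3655520-3655769, plus strand): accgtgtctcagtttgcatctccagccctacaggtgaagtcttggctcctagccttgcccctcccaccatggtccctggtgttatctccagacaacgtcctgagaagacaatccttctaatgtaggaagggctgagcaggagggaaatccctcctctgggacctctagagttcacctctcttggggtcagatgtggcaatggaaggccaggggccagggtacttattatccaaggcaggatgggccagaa
Cidec, start 2 of 2 (chr6:113434765-113435014, minus strand): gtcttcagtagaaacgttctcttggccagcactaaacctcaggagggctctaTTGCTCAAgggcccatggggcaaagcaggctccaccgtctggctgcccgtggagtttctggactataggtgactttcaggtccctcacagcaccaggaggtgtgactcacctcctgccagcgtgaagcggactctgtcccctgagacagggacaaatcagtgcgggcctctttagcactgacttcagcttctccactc
Pparg, start 3 of 3 (chr6:115421816-115422065, plus strand): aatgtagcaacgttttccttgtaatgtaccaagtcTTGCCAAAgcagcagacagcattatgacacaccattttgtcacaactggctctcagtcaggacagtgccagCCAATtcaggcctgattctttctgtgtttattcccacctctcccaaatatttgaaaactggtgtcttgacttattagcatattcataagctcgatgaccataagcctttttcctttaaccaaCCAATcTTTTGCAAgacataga
Adipoq held 3 CCAAT boxes within 34 bases of its start, of which 2 lie on the opposite strand. Start 3 of Pparg held 2 C/EBP motifs and 2 CCAAT boxes, and start 2 of Cidec held 1 C/EBP motif. For these 2 genes the start with the most matches is shown. Start 1 of Cidec matched none of the motifs, and starts 1 and 2 of Pparg held no C/EBP motif. Retn matched none of the 5. The C/EBP motif occurs in 9.56%, the CCAAT box in 33.8%, the single site in 14.0%, the TATA box in 12.4% and the whole direct repeat in 0.0335% of all 32851 promoter stretches of this length. None of the 10 starts held the whole repeat. The single site was found at starts 1 and 2 of Pparg, and C/EBP motifs also before Lep and Plin1. Start 2 of Pparg also held a TATA box and a CCAAT box. These are matches of letters and say nothing about binding.

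Adipoq encodes adiponectin, the most abundant adipokine, which raises insulin sensitivity and fat oxidation in muscle. It gave signals of 133 in MMP-2 null and 237 in mdx at 1 month, and of 129 in MMP-2 null and 104 in mdx at 3 months. The mdx array at 1 month was thus the highest, the 3-month mdx array the lowest, and both MMP-2 null arrays lay between them and close to each other. This was a 1.79-fold lower signal in MMP-2 null at 1 month (log2 difference -0.84) and a 1.24-fold higher one at 3 months (0.32). Between ages, Adipoq was 2.28-fold lower at 3 months in mdx (-1.19) and 1.03-fold lower in MMP-2 null (-0.04).

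Retn encodes resistin, an adipokine that in mice comes from fat and opposes insulin. Its signals were 41.9 in MMP-2 null and 47.5 in mdx at 1 month, and 48.7 in MMP-2 null and 34.2 in mdx at 3 months. The lowest array was again mdx at 3 months, but the highest was MMP-2 null of the same age, a 1.43-fold difference (0.51), against a 1.14-fold lower signal at 1 month (-0.18). Lep, which encodes the satiety hormone leptin, had signals of 2.85, 2.03, 2.28 and 1.99 in the same order of arrays. All 4 lay under the floor, so leptin transcript was not measurable here and no fold is given.

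**Figure D1:**
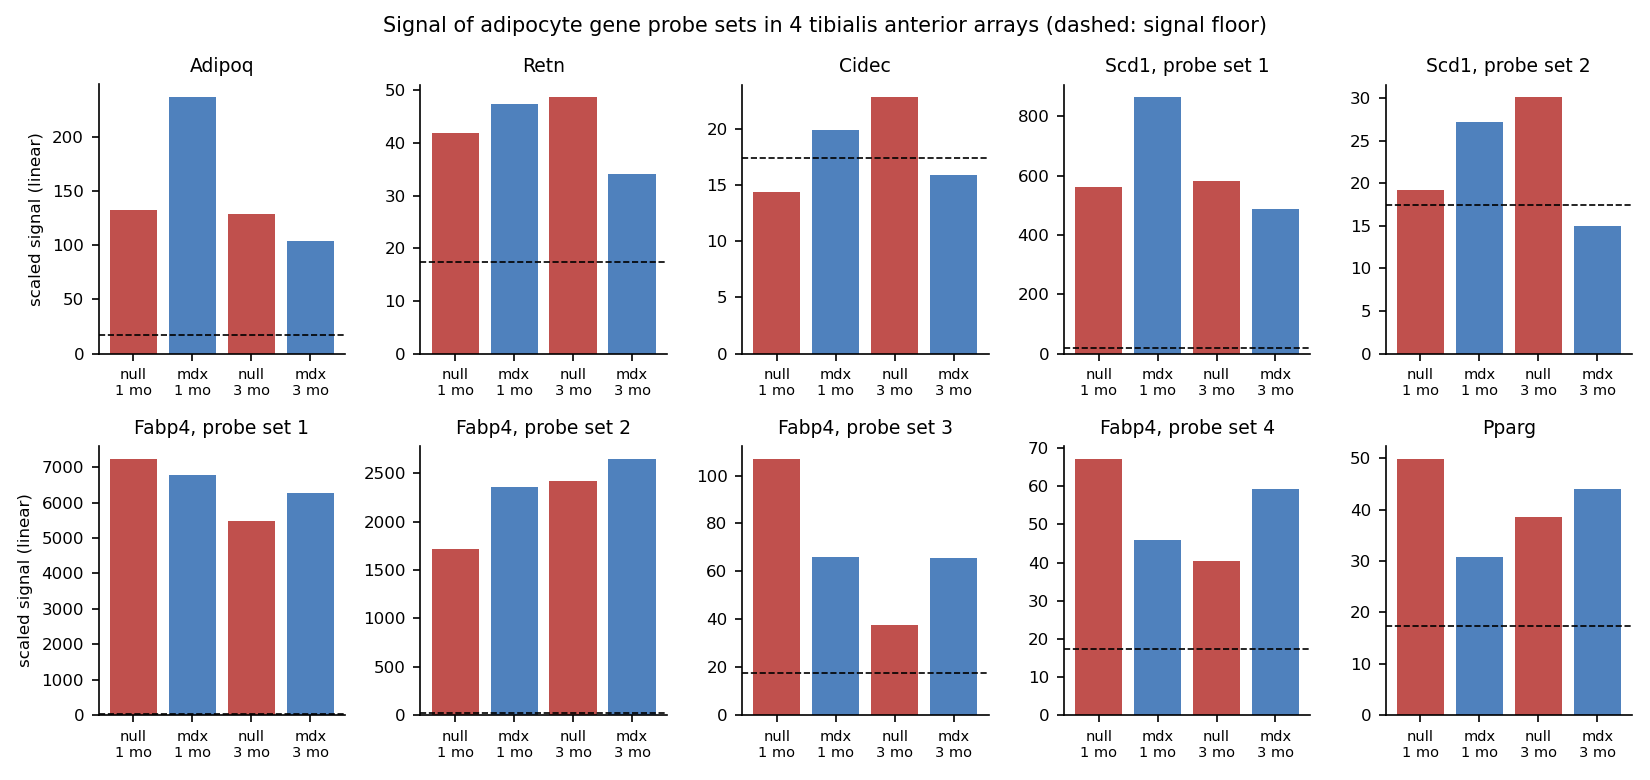
Scaled signal (linear axis) of the 10 measured probe sets of the adipocyte genes in the 4 arrays, 1 bar an array, with mdx/MMP-2 null (null) in red, mdx in blue and the floor of 17.4 as a dashed line. Adipoq and both Scd1 probe sets are lower in MMP-2 null at 1 month and higher at 3 months, Fabp4 probe sets 3 and 4 and Pparg the reverse.

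Among the genes of fat storage, Cidec encodes a protein that fuses small lipid droplets into large ones. It was near the floor, with 14.4 in MMP-2 null and 19.9 in mdx at 1 month, and 22.8 in MMP-2 null and 15.9 in mdx at 3 months. Only the mdx array at 1 month and the MMP-2 null array at 3 months exceeded the floor. Cidec was therefore at least 1.14-fold lower in MMP-2 null at 1 month and at least 1.31-fold higher at 3 months.

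Scd1 encodes stearoyl-CoA desaturase, which makes monounsaturated fatty acids. Its brighter probe set gave 562 in MMP-2 null and 864 in mdx at 1 month, and 581 in MMP-2 null and 489 in mdx at 3 months. As for Adipoq, mdx at 1 month was the highest and mdx at 3 months the lowest array, with both MMP-2 null arrays close together. The genotype difference was 1.54-fold lower at 1 month (-0.62) and 1.19-fold higher at 3 months (0.25), and in mdx the 3-month signal was 1.77-fold lower (-0.82). The dim probe set of Scd1 had the same signs, with 19.2 against 27.2 at 1 month and 30.1 against 15.0 at 3 months, the last value being under the floor. It was 1.42-fold lower in MMP-2 null at 1 month and at least 1.73-fold higher at 3 months.

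Fabp4 encodes the fatty acid carrier of fat cells, also called aP2, and had 4 probe sets. The brightest gave 7234 in MMP-2 null and 6773 in mdx at 1 month, and 5485 in MMP-2 null and 6255 in mdx at 3 months. It spanned 1.32-fold over the 4 arrays, the least of the members measured in all of them. The second gave 1716 against 2356 at 1 month and 2417 against 2651 at 3 months, and so was lower in MMP-2 null at both ages (-0.46 and -0.13). Of the dim pair, one gave 107 against 65.9 at 1 month (0.70) and 37.7 against 65.5 at 3 months (-0.80). The other gave 67.2 against 46.0 (0.55) and 40.5 against 59.2 (-0.55). The 4 probe sets of Fabp4 thus disagreed at 1 month, where 3 were higher and 1 lower in MMP-2 null, while all 4 were lower at 3 months. Between ages in MMP-2 null, the brightest 3 differed by -0.40, 0.49 and -1.51, so no single age difference can be given for this gene.

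Pparg encodes the master regulator of fat cell differentiation. Its probe set is of a kind that reads several transcripts of 1 gene and does not separate its isoforms. Signals were 49.9 in MMP-2 null and 30.8 in mdx at 1 month, and 38.5 in MMP-2 null and 44.1 in mdx at 3 months. The mdx array at 1 month, the highest for Adipoq, was the lowest for Pparg. The highest was MMP-2 null at 1 month, so the order was not the full reverse of Adipoq. Pparg was 1.62-fold higher in MMP-2 null at 1 month (0.69) and 1.14-fold lower at 3 months (-0.19). Between ages it was 1.43-fold higher at 3 months in mdx (0.52) and 1.29-fold lower in MMP-2 null (-0.37).

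Counted by the brightest probe set of each gene, none of the 6 measured genes (0) passed 2-fold in either direction between MMP-2 null and mdx at 1 month, where 0.570% of all 12801 genes were higher and 0.578% lower by that much. At 1.5-fold, Pparg was higher, where 3.52% of all genes were, and Adipoq and Scd1 lower, where 3.56% were. At 3 months again 0 genes passed 2-fold in either direction, beside 1.18% of all genes higher and 0.422% lower. None passed 1.5-fold, beside 6.12% higher and 3.33% lower. The median log2 difference over the 6 genes was -0.19 at 1 month and 0.28 at 3 months, against 0.00 over all genes at both ages.

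Between ages in mdx, 1 of the 6 genes, Adipoq, was at least 2-fold lower at 3 months, beside 1.55% of all genes, and 0 were higher, beside 0.976%. At 1.5-fold, Adipoq and Scd1 were lower, beside 7.27% of all genes, and none was higher, beside 5.97%. The median was -0.33, with 5 of 6 genes lower and Pparg higher. Over all genes 48.0% were higher at 3 months in mdx and 50.1% in MMP-2 null. In MMP-2 null, 0 genes passed 2-fold, beside 1.47% of all genes higher and 1.22% lower, none passed 1.5-fold, beside 7.41% higher and 6.70% lower, and the median was 0.00, with 3 genes higher and 3 lower. The genotype and age differences share arrays, and a high signal in the mdx array at 1 month alone lowers both the 1-month genotype difference and the age difference in mdx. The Actb 3'/5' ratio differed between ages as well, that of Gapdh much less (0.85 to 0.94 over the arrays). The part of RNA quality in the age differences was not tested.

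**Figure D2:**
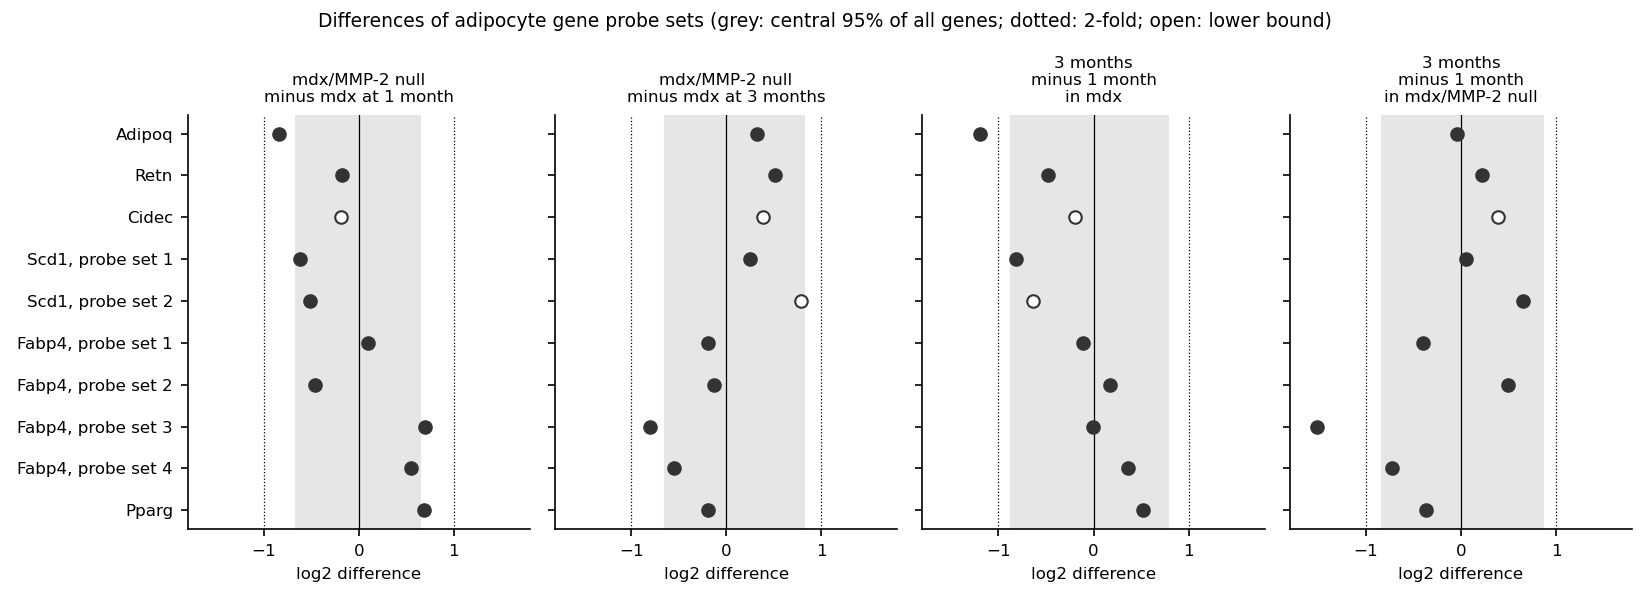
Log2 difference (horizontal axis) of each probe set of the adipocyte genes in 4 comparisons of single arrays. The grey band holds the central 95% of all genes, each by its brightest probe set, dotted lines mark 2-fold, and open points are lower bounds. Adipoq lies below the band at 1 month (-0.84) and in mdx between ages (-1.19), and 1 dim Fabp4 probe set below it at 3 months (-0.80) and in MMP-2 null between ages (-1.51). Pparg (0.69) and that Fabp4 probe set (0.70) lie above it at 1 month.

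By the brightest probe set of each gene, the genotype difference had opposite signs at the 2 ages for 6 of 6 measured genes, which 45.2% of all genes had. The second Fabp4 probe set did not, being lower in MMP-2 null at both ages (-0.46 and -0.13). Adipoq, Retn, Cidec and Scd1 were lower in MMP-2 null at 1 month and higher at 3 months, as were 22.9% of all genes. Cidec exceeded the floor only in mdx at 1 month and MMP-2 null at 3 months. Its signs in these counts therefore follow from which arrays passed the floor. Fabp4 and Pparg were higher at 1 month and lower at 3 months, as were 22.3%. These shares of all genes include genes without a difference at an age because both arrays were under the floor. Such genes cannot have opposite signs, so the shares among genes with a difference at both ages are larger. Scaling moves the median of all genes, to 0.41 at 3 months with signals left unscaled and to -0.10 at 1 month with median scaling. Fabp4 and Pparg then stood at 0.08 and 0.29 at 3 months, and Fabp4 at -0.07 at 1 month, each with its sign turned but on the same side of all genes. The change of the genotype difference from 1 to 3 months was 1.15 for Adipoq, 0.87 for Scd1, 0.70 for Retn, at least 0.58 for Cidec, -0.28 for Fabp4 and -0.89 for Pparg. Of these Adipoq alone passed 2-fold, beside 2.91% of all genes in that direction and 1.69% in the other. At 1.5-fold, Adipoq, Retn and Scd1 passed in the positive direction, beside 10.4% of all genes, and Pparg in the negative, beside 7.58%. In bulk muscle, fewer fat cells and less RNA per fat cell cannot be told apart.

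The additive fit of genotype and age in limma has 1 residual degree of freedom a gene and takes the departure from equal differences at both ages as error. It called 0 of the 6 genes for genotype and 0 for age at an adjusted p under 0.05 (Benjamini-Hochberg over 12801 genes), beside 0% of all genes for either. At an unadjusted p under 0.05 it again called 0 of the 6, beside 4.37% of all genes for genotype and 13.7% for age. Adipoq had a genotype coefficient of -0.26 ± 0.31 (SE, limma adjusted p = 0.985) and an age coefficient of -0.62 ± 0.31 (limma adjusted p = 0.450).

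Fatty acid synthesis, the pathway that feeds Scd1, had mostly the signs of Scd1 in these arrays. Of its 14 listed genes above the floor in at least 1 array, 11 were lower and 3 higher in MMP-2 null at 1 month. At 3 months 10 were higher and 3 lower, and 8 of the 14 (57.1%) were lower at 1 month and higher at 3 months, as were 22.9% of all genes. Over all genes 46.8% were higher at 1 month and 47.6% at 3 months. The list's median of -0.21 at 1 month and 0.06 at 3 months kept its sign under all 5 scalings run. Fasn, fatty acid synthase, gave 114 in MMP-2 null and 158 in mdx at 1 month, and 101 in MMP-2 null and 74.6 in mdx at 3 months. Acaca, the acetyl-CoA carboxylase that makes malonyl-CoA, gave 68.2 against 107 at 1 month and 93.7 against 90.4 at 3 months. Between ages in mdx, 10 of the 14 were lower at 3 months, Fasn by 2.12-fold, while 48.0% of all genes were higher. Scd2, a desaturase related to Scd1, differed little between genotypes (-0.04 and -0.16) and was 1.56-fold lower at 3 months in mdx. Me1, malic enzyme, was lower in MMP-2 null at both ages (-0.24 and -0.43), although another of its probe sets lay the opposite way at 1 month. No gene of this list was 2-fold apart between genotypes.

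Other white fat cell genes did not share 1 direction. Of 18 listed, 17 had a probe set and 14 were measured, of which 8 were higher and 4 lower in MMP-2 null at 1 month and 7 higher and 6 lower at 3 months, with medians of 0.09 and 0.11. Gpd1, which makes glycerol phosphate for triglyceride, gave 1459 against 1255 at 1 month and 645 against 805 at 3 months, and was 2.26-fold lower at 3 months in MMP-2 null, with another probe set the opposite way. Aqp7, the glycerol channel of fat cells, gave 91.6 against 121 at 1 month and 78.0 against 105 at 3 months. Aoc3, an amine oxidase of fat and smooth muscle, gave 165 against 184 and 88.3 against 126, and Cyp2e1, a cytochrome of fat and liver, 131 against 115 and 208 against 151. Past 2-fold at 1 month, and picked out after their values were seen, were 3 dimmer genes. Rbp4, the retinol carrier, was 3.27-fold lower in MMP-2 null (19.8 against 65.0). Pck1, an enzyme of glyceroneogenesis, was 2.40-fold higher (45.5 against 19.0), and Lgals12, a galectin of fat cells, at least 2.29-fold higher, its mdx signal of 7.67 being under the floor.

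After quantile scaling, genes that build, coat and break down droplets had medians of the opposite signs to Adipoq, though small. Of 19 measured, 13 were higher in MMP-2 null at 1 month and 14 lower at 3 months, with medians of 0.10 and -0.09. With median scaling 8 were higher and 11 lower at 1 month. Of the 19, 9 (47.4%) were higher at 1 month and lower at 3 months, as were 22.3% of all genes. Relative to all genes the list stood at 0.03 to 0.10 at 1 month and at -0.09 to -0.06 at 3 months over the 5 scalings. Plin2, the droplet coat of non-fat cells and of lipid-laden macrophages, gave 331 against 285 at 1 month and 616 against 280 at 3 months, a 2.20-fold difference. G0s2, an inhibitor of the triglyceride lipase Pnpla2, gave 285 against 422 at 1 month and 126 against 252 at 3 months, 2.01-fold lower. Dgat2, which adds the last fatty acid to triglyceride, gave 237 against 187 and 124 against 132. Mgll, which cleaves monoglycerides, gave 576 against 575 and 313 against 387, its other probe sets disagreeing at 1 month. Cidea, a droplet protein related to Cidec, was 2.13-fold higher in MMP-2 null at 1 month and is named because it passed 2-fold.

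Of the 9 fatty acid uptake genes measured, 8 were higher in MMP-2 null at 1 month and 5 at 3 months. Relative to all genes the list's median was 0.06 to 0.10 at 1 month over the 5 scalings, while at 3 months it was 0.07 after quantile scaling and -0.09 with trimmed mean scaling. Angptl4, a PPAR target that inhibits lipoprotein lipase, gave 323 against 128 at 1 month and 328 against 205 at 3 months, so it was higher at both ages (1.34 and 0.68 on the log2 scale), unlike the 6 fat cell genes. Slc27a4, a fatty acid transporter, gave 104 against 81.9 and 60.4 against 52.2. Fabp5, the carrier of skin and macrophages, gave 2147 against 2208 and 2392 against 1663. Vldlr, a lipoprotein receptor, gave 1811 against 1754 and 2212 against 3035, with 2 other probe sets the opposite way at 1 month.

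Transcription factors of fat cell differentiation showed no common direction, with 7 of 12 higher in MMP-2 null at each age. Cebpd, an early inducer of Pparg, gave 784 against 861 at 1 month (another probe set the opposite way) and 1034 against 680 at 3 months. Klf15, a factor that also answers to glucocorticoids in muscle, gave 171 against 138 and 213 against 314, and in mdx was 2.28-fold higher at 3 months. Srebf1, the driver of lipid synthesis genes, differed by 0.10 and -0.08 between genotypes, while Ebf1 differed by -0.52 and 0.17, with other probe sets the opposite way at both ages. Among receptors and cofactors of the PPAR family, 5 of 9 were higher at 1 month and 6 lower at 3 months. Ppargc1a, a coactivator of mitochondrial genes, gave 435 against 300 at 1 month and 346 against 537 at 3 months, the same signs as Pparg. Ppara differed by 0.08 and -0.39, Rxra by -0.36 and -0.18 (another probe set the opposite way at 3 months), and Ppargc1b by -0.43 and -0.39.

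Inhibitors of fat cell differentiation had 10 of 13 genes measured, with 3 higher and 6 lower in MMP-2 null at 1 month and 5 higher and 4 lower at 3 months. Dlk1, which holds preadipocytes undifferentiated and is also made by regenerating fibres, gave 172 against 122 at 1 month and 13.4 against 35.6 at 3 months, at least 2.04-fold lower. Between ages Dlk1 was 3.44-fold lower at 3 months in mdx and at least 9.86-fold lower in MMP-2 null. Tgfb1, a growth factor that blocks fat cell differentiation and drives fibrosis, gave 52.5 against 90.5 at 1 month and 87.4 against 56.4 at 3 months, the same signs as Adipoq. Sirt1 and Ddit3 differed by at most 0.17 in size between genotypes, with another probe set of Ddit3 the opposite way at 1 month. At 3 months Sirt1 was higher than at 1 month in MMP-2 null (0.74) and in mdx (0.64), and Ddit3 lower (-0.64 and -0.43).

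Receptors for fat hormones were measured too. Adipor1, the main adiponectin receptor of muscle, gave 1259 against 1283 at 1 month and 1593 against 1807 at 3 months, with another probe set the opposite way at 1 month. Lepr, the leptin receptor, named after its values were seen, gave 31.3 against 45.4 at 1 month (-0.54) and 36.4 against 37.0 at 3 months (-0.02). Of the other adipokines, Apln, the vessel-active peptide apelin, gave 90.8 against 60.5 and 59.8 against 39.7, so it was higher in MMP-2 null by 0.59 on the log2 scale at both ages. Retnla, a resistin relative made by alternatively activated macrophages, gave 273 against 224 and 280 against 335. Rarres2, the chemoattractant chemerin, gave 128 against 168 and 136 against 148. Of 9 genes in this group, 4 were higher at 1 month and 2 at 3 months, and none passed 2-fold.

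**Figure D3:**
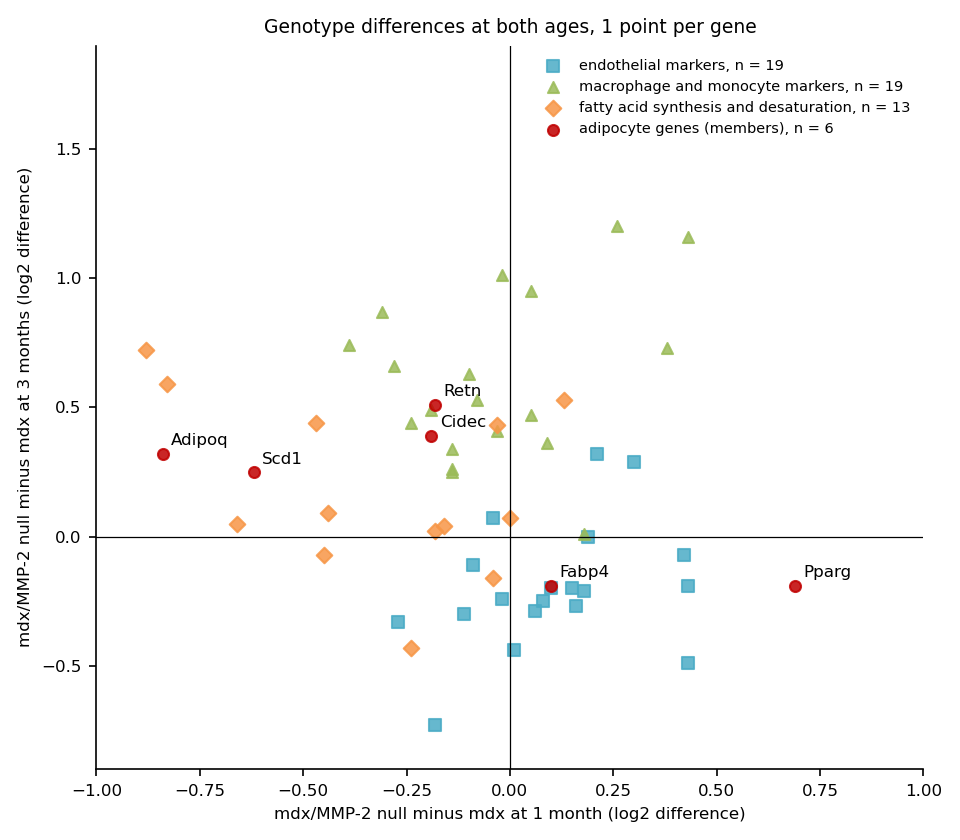
Genotype difference (log2, MMP-2 null minus mdx) at 1 month (horizontal axis) and 3 months (vertical axis), 1 point a gene, for the 6 measured adipocyte genes, fatty acid synthesis genes, and markers of endothelium and macrophages. Genes with no value at one age because both arrays were under the floor are left out. Adipoq, Scd1, Retn and Cidec lie at upper left with 8 fatty acid synthesis genes and 12 of the 19 macrophage markers, and Fabp4 and Pparg at lower right with 11 of the 19 endothelial markers.

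Markers of other cells that can make some of these transcripts also differed between genotypes. Of 19 macrophage and monocyte markers, 7 were higher and 12 lower in MMP-2 null at 1 month and all 19 higher at 3 months, with medians of -0.08 and 0.53 and summed signals of 14285 against 15703 and of 17825 against 11725. All 19 were higher at 3 months under each of the 5 scalings, and 12 (63.2%) were lower at 1 month and higher at 3 months, as were 22.9% of all genes. Mrc1, the mannose receptor, gave 580 against 560 at 1 month and 855 against 443 at 3 months, and Ccr2, a chemokine receptor of monocytes, 142 against 119 and 252 against 110. Fcer1g, a signalling chain of Fc receptors, gave 532 against 540 and 814 against 404, and Msr1, a scavenger receptor, 43.0 against 31.9 and 118 against 52.8. These 4 differed at 1 month by -0.02 to 0.43, and other probe sets of Ccr2 and Msr1 lay the opposite way there. Neutrophil markers, 7 of 10 measured, had 2 higher and 3 lower in MMP-2 null at 1 month (median 0.00). At 3 months 5 were higher and 1 lower (median 1.33). Their summed signals were 217 against 195 and 707 against 123. The 2 higher at 1 month were S100a8 (74.5 against 59.4, and 343 against 35.9 at 3 months) and S100a9 (55.8 against 37.7, and 216 against 20.2). Elane, Ltf and Cxcr2 were under the floor in every array. The part of these cells in the signals of Scd1, Retn and Adipoq was not tested.

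After quantile scaling, endothelial markers were mostly higher at 1 month and lower at 3 months, the signs of Pparg and of the brightest Fabp4 probe set. Of 19 measured, 13 were higher in MMP-2 null at 1 month and 16 lower at 3 months, with medians of 0.10 and -0.21 and summed signals of 5000 against 4627 and of 3321 against 3700. Of the 19, 11 (57.9%) were higher at 1 month and lower at 3 months, as were 22.3% of all genes. With median scaling 9 were higher and 10 lower at 1 month. Relative to the median of all genes, the list stood at 0.08 to 0.12 at 1 month and at -0.22 to -0.15 at 3 months over the 5 scalings. Between ages 16 were lower at 3 months in mdx and 17 in MMP-2 null, while 48.0% and 50.1% of all genes were higher. Sox18, an endothelial transcription factor, gave 257 against 192 at 1 month and 134 against 140 at 3 months, Kdr, a VEGF receptor, 166 against 149 and 86.8 against 100.0, and Tek, the angiopoietin receptor, 285 against 273 and 130 against 158. Pecam1, an adhesion molecule of vessels, gave 231 against 234 and 87.7 against 104. Their part in the Fabp4 and Pparg signals was not tested.

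Progenitor markers, 12 measured, had 6 higher and 6 lower in MMP-2 null at 1 month and 10 higher and 1 lower at 3 months (median 0.25, and at least that under the 5 scalings), with summed signals of 11787 against 11530 and 12412 against 11653. Ccn5, a matricellular protein of these cells, gave 34.4 against 32.1 at 1 month and 89.1 against 32.6 at 3 months, 2.74-fold higher. Pi16, of the universal fibroblast, gave 218 against 264 and 195 against 144, Cd34 873 against 784 and 652 against 483, and Cd55 257 against 343 and 268 against 456. Of 10 brown and beige fat markers, Ucp1, the defining uncoupling protein, and Elovl3 and Otop1 were under the floor in all 4 arrays. Zic1, a transcription factor of brown fat, gave 55.7 against 35.3 at 1 month and 45.3 against 63.3 at 3 months, and Prdm16, a driver of brown fat fate, 35.7 against 43.0 and 39.5 against 47.6, with another probe set the opposite way at both ages. Tmem26, a beige fat marker, was above the floor only in MMP-2 null at 3 months (20.9). The brown fat list's Cox7a1, Cox8b, Dio2 and Tbx1 were well above it, are also made by muscle, and differed by at most 0.16 in size between genotypes. Another probe set of Dio2 lay the opposite way at both ages. Of the keratinocyte markers, Krt10 gave 112 against 140 and 89.8 against 104. Fast fibre genes such as Tnnc2, Tcap and Myh1 differed between genotypes by at most 0.14 in size, and Myh2 by 0.28 and 0.47, after quantile scaling. The 3-month median of the fast fibre list was -0.03 there, but -0.15 with cyclic loess, -0.29 with median and -0.35 with trimmed mean scaling, and -0.32 relative to all genes without scaling.

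Across the 4 arrays, likeness was measured as the distance between centred log2 signals, 0 meaning the same pattern. Adipoq lay nearest Scd1 among the members (0.28) and farthest from Pparg (1.33), with Retn at 0.69 and Fabp4 at 0.83. Of 10372 other named genes above the floor in all arrays, the nearest to Adipoq were Hey1, a Notch target (0.116), P3h1, a collagen prolyl hydroxylase (0.132), Tcaf1 (0.171), Pax7, the satellite cell factor (0.179), and Wnt5a, a Wnt ligand (0.180). Hey1 gave 48.9 against 89.8 at 1 month and 52.0 against 42.1 at 3 months. Of these 5, Wnt5a is also on the list of inhibitors of fat cell differentiation. The median pattern of Adipoq, Fabp4, Retn, Scd1 and Pparg was flat, from -0.32 in mdx at 3 months to 0.16 in mdx at 1 month. Nearest to it were genes that likewise varied little, namely Pip4k2c, Litaf, Rab23, Slc50a1, Ddx17, Rfwd3, Ctsh, Usp20, Kctd1 and Zfp27, at distances of 0.132 to 0.142. Over only 4 arrays, these distances are a description.

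**Figure D4:**
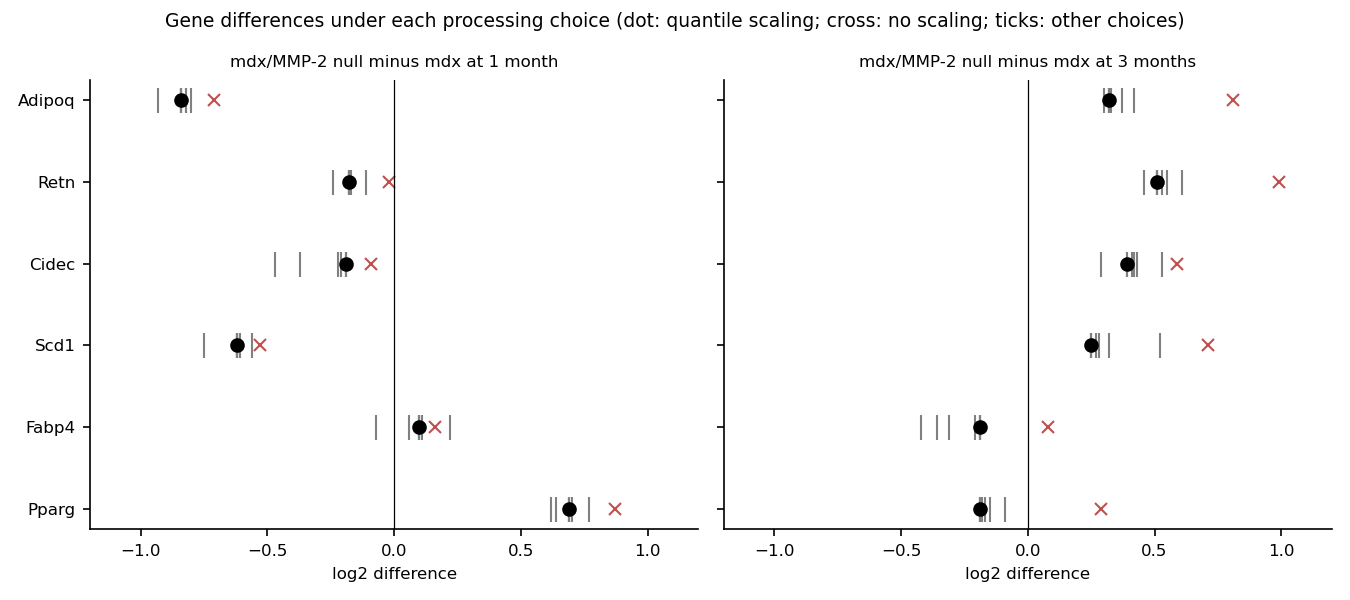
Log2 difference between genotypes (horizontal axis) at 1 month (left) and 3 months (right) for the 6 measured adipocyte genes under quantile scaling (dot), no scaling (cross) and 8 other processing choices (ticks, 7 for Cidec). Adipoq, Retn, Cidec and Scd1 stay on the same side of 0 under every choice in which they had a value, while Fabp4 and Pparg cross 0 at 3 months without scaling (0.08 and 0.29, where all genes had a median of 0.41).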

How the data were processed

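Biotin-labelled RNA of tibialis anterior was read on 4 arrays. Each deposited value is the linear intensity of a probe set, summarised by the authors with MAS5; the submitters' processing notes name Affymetrix Expression Console. Their versions and any scaling target are not given in the sources used here. After leaving out 64 control probe sets, the other 45037 were brought to 1 distribution by quantile normalization (limma 3.58.1, R 4.3.3). Signals under 17.4 were raised to it and put on the log2 scale. A fold with 1 array under this floor is a lower bound, and none is given with both under it. Gene symbols came from the platform annotation: 34945 probe sets had 1 symbol, 932 several and 9160 none here. Where a gene had several single-gene probe sets, the one brightest on average (log2) stood for it.

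The members, the lists and the naming rule were chosen with earlier results of these data known. Named were the members, Mmp2, Dmd, and of each other list up to 4 genes with the largest differences with a top signal of 85.4 (the 75th percentile) or more, and the nearest patterns. Rbp4, Pck1, Lgals12, Cidea, Lepr, Zic1, Prdm16, Tmem26 and the genes given as under the floor fall outside that rule and were named after their values were seen. The additive fit used lmFit and eBayes (prior degrees of freedom 3.56). It was also run on simulated data with genotype differences far larger than those of the members and the same at both ages. That run cannot tell how the fit performs on the present data. Alternatives were median, trimmed mean, cyclic loess or no scaling, a floor at the 60th or the 40th percentile, a pseudocount of 4.36 in place of a floor, the mean of all probe sets, no _x_at or _s_at probe sets, thresholds of 3-fold and 1.5-fold, a variance prior that follows signal, and unadjusted p. Other steps used Python 3.11.15, numpy 2.4.6, pandas 2.3.3 and matplotlib 3.10.9. The number of arrays limits the precision.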

Additional observations from a re-analysis of the deposited data

Results flagged for a closer look

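For 4 probe sets the genotype difference had opposite signs at the 2 ages and changed by at least 2-fold on going from 1 to 3 months. The change in log2 difference was 1.15 for Adipoq and at least 1.30 for the dim probe set of Scd1, both lower in MMP-2 null at 1 month and higher at 3 months. It was -1.50 and -1.09 for the 2 dim probe sets of Fabp4, higher at 1 month and lower at 3 months. With 1 array a group these changes were not tested. By the brightest probe set of each gene, 2.91% and 1.69% of all genes changed as much upward and downward. That share matches Adipoq only, and none was computed for dim probe sets. The bright probe sets of Scd1 (0.87) and Fabp4 (-0.28 and 0.32) changed less than their dim ones.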

How the results depend on the processing

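Over the alternatives, the genotype differences of Adipoq, Retn, Cidec and Scd1 kept their sign wherever they had a value. That of Adipoq ran from -0.93 to -0.71 at 1 month and from 0.30 to 0.81 at 3 months, with both upper values from unscaled signals. The age difference of Adipoq in mdx ran from -1.28 to -1.16, and in MMP-2 null it turned positive with median scaling or no scaling (up to 0.24). Retn at 1 month reached -0.02 without scaling. With the mean of all probe sets, Fabp4 turned positive between ages in mdx (0.10). At a threshold of 1.5-fold the count at 1 month was 1 gene higher and 2 lower in MMP-2 null, and 2 genes were lower at 3 months in mdx. At 3-fold the last count was 0. The count of members called in the additive fit stayed at 0 under every alternative run. Over all genes that fit called 0 for genotype and 0 for age under quantile scaling, 21 and 79 without scaling, 1 and 11 with median scaling, 1 and 0 with cyclic loess, 1 and 1 with the higher floor, and 1 and 130 with a variance prior that follows signal. Cidec had no value with the floor at the 60th percentile, which it never passed. No paired analysis was possible because each group holds 1 array and the labels give no replicate numbers. The median deposited signal of an array was 15.1 to 19.7. Values of Cidec and of the dim probe set of Scd1 lie near the floor. Retn and Pparg (30.8 to 49.9) and the dim probe sets of Fabp4 (37.7 to 107) were above it in all 4 arrays but were still dim.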
